A study of Solanum lycopersicum with 9 samples.

Results

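The RNA genes of tomato (Solanum lycopersicum) are the loci whose gene ID carries the letter r, for RNA, where a protein-coding gene carries the letter g. They were taken as every row of the expression table whose ID begins with Solyc, the chromosome digits and an r, with no selection on values. This gave 6154 rows of 40229, and the other 34075 rows were protein-coding. All 9 libraries came from seeds imbibed for 6 h, that is, allowed to take up the water with which germination begins. There were 3 libraries each of wild type (WT), SlLBD40 knockout and SlWRKY37 knockout seeds. The disrupted genes belong to the LOB domain and the WRKY families, both families of plant transcription factors. The labels name neither the cultivar, the alleles nor the number of lines behind a genotype, and they do not state that replicates were separate seed lots or plants, so a p-value reflects no more than how these libraries vary. The edited genes could not be matched to rows whose IDs are cut, so the genotypes are taken from the labels.

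RNA genes are transcribed into RNA that is not translated. They include microRNA precursors, which Dicer-like enzymes cut into small RNAs that Argonaute proteins carry to matching transcripts, and long non-coding RNAs, which are often capped and polyadenylated like messenger RNA. In Arabidopsis seeds, an antisense RNA of the dormancy gene DOG1 lowers its expression, a known case of a non-coding RNA in dormancy. None of the 6154 RNA genes had a description in the table, so no RNA class can be given for any of them, and no sequence was available for these loci here. A full ID was readable for 3666 of them. The other 2488 had a cut or missing name and are called by their place in the table after the last readable ID. In 93.8% of 3653 consecutive readable IDs the number rose by 10 per row, so the table follows the order of the ID numbers. No coordinates were available, so rows called neighbouring are neighbours in this order.

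The values were taken as FPKM, fragments scaled to transcript length and sequencing depth, which allows levels of loci of different length to be compared. No header states the unit, the read counts behind the values are unknown, and no counting interval is given. Library sums lay between 856291 and 918103. The value that 1 fragment is worth, estimated from low rows, was 0.986 to 1.22 times that of WT replicate 1, and was highest in SlWRKY37 replicates 2 and 3. These estimates rest on 15 to 38 low rows per library. Markers of mature seed, the oil body, storage and desiccation proteins, took 7.56 to 9.42% of the WT library sums, 2.75 to 3.31% in the SlLBD40 knockout and 3.07 to 5.15% in the SlWRKY37 knockout. Of these 187 seed marker rows, 135 were above 0. Green tissue markers, with 122 of 189 rows above 0, took 0.0594 to 0.103% in WT, 0.0906 to 0.113% in the SlLBD40 knockout and 0.0436 to 0.0618% in the SlWRKY37 knockout. Fruit markers, with 28 of 34 rows above 0, took 0.105 to 0.117% of every library. Seed marker content therefore moved with genotype, and its part in the differences below was not tested. In bulk seed, fewer cells of a type and less RNA per cell cannot be told apart, and without stated strand information neither can an RNA gene and a protein-coding gene that overlaps it.

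Most RNA genes had low values or 0 in these libraries of imbibed seed. The libraries were of the mRNA-Seq type, and whether RNA that is not polyadenylated was captured is not stated. A value of 0 therefore does not show that a locus is silent. A value above 0 in at least 1 library was found for 3753 of the 6154 rows (61.0%), against 74.7% of protein-coding rows, and 2401 were listed at 0 in all 9. Only 1442 (23.4%) were above 0 in every library, compared with 54.1% of protein-coding rows. A further 584 appeared in a single library. The mean of the 9 libraries was 1 or more for 1033 RNA genes (16.8%), against 50.8% of protein-coding rows, and these 1033 are the loci that could be tested. Their median level was 2.92, with quartiles of 1.67 and 6.67, while tested protein-coding rows had a median of 12.95. A mean of 10 or more was reached by 177 RNA genes, and 12 reached 100. The 2720 RNA genes that were above 0 with a mean under 1 were not tested.

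RNA genes took 1.30, 1.39 and 1.45% of the library sum in WT. The share was 1.37, 1.44 and 1.36% in the SlLBD40 knockout and 1.57, 1.44 and 1.40% in the SlWRKY37 knockout. The 3 genotypes overlapped, at 1.38% ± 0.0745, 1.39% ± 0.0407 and 1.47% ± 0.0872 (SD, n = 3). The number of RNA genes with a value of at least 1 was 1024, 1105 and 1022 in WT and 910, 916 and 1013 in the SlLBD40 knockout, so that every SlLBD40 library lay below every WT library. Protein-coding rows went the other way, with 16733 to 16891 rows at this level in WT and 17025 to 17342 in the SlLBD40 knockout. In the SlWRKY37 knockout 1007, 1035 and 1006 RNA genes reached this level, within or just below the WT range. RNA genes above 0 numbered 2455 to 2520 in WT, 2333 to 2473 in the SlLBD40 knockout and 2316 to 2395 in the SlWRKY37 knockout. These counts depend on read depth, which is unknown and was only estimated in relative terms above, and they were not tested.

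RNA gene rows were present on all 12 chromosomes and on the unplaced sequence that IDs number as chromosome 0. Their number ran from 383 on chromosome 11 to 746 on chromosome 1, with 81 on chromosome 0, and there were 15.8 to 21.4 of them per 100 protein-coding rows. The share above 0 was highest on chromosome 6, at 68.0%, and chromosome 8, at 67.8%. It was lowest on chromosome 0, at 37.0%, and chromosome 5, at 48.6%, where 248 of 510 rows were above 0. Protein-coding rows of chromosome 5 were above 0 in 71.2% of cases and those of chromosome 6 in 80.5%.

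**Figure D1:**
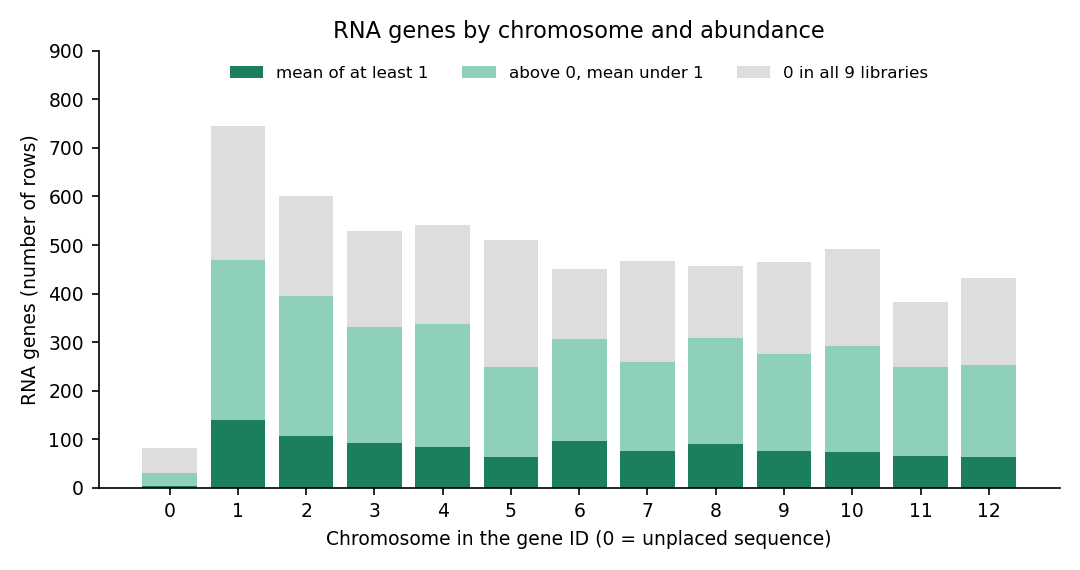
Number of RNA gene rows (vertical axis) on each chromosome in the gene ID, with 0 for unplaced sequence, stacked by level: mean of 1 or more, above 0 with a mean under 1, and 0 in all 9. The pale and dark green parts together make up 48.6% of the bar on chromosome 5 and 68.0% on chromosome 6.

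Summed level was far more uneven than gene number, because a few loci held much of it. Chromosome 0 held 19.1% of the summed RNA gene level, chromosome 6 held 14.03%, chromosome 7 held 12.6% and chromosome 11 held 2.92%. A single locus, Solyc00r000200.1, made up 99.4% of the chromosome 0 sum, and Solyc06r031920.1 made up 50.05% of that of chromosome 6. The 10 most abundant RNA genes held 39.8% of the sum over all RNA genes, whereas the 10 most abundant protein-coding rows held 7.24% of theirs. On chromosome 4 the summed level was 677, 742 and 739 in WT, 993, 1035 and 1112 in the SlLBD40 knockout and 854, 728 and 703 in the SlWRKY37 knockout. The SlLBD40 libraries were all above the other 6. On chromosome 7 the sum was 1298 ± 63.6 in WT, 1599 ± 114 in the SlLBD40 knockout and 1884 ± 284 in the SlWRKY37 knockout (SD, n = 3), and neither knockout overlapped WT. That sum includes Solyc07r035810.1, with means of 262 in WT, 456 in the SlLBD40 knockout and 548 in the SlWRKY37 knockout. It also includes the row after it, at 213, 345 and 451 in the same order. Whether the rest of the chromosome differs was not tested.

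The most abundant RNA gene, Solyc00r000200.1 on unplaced sequence, had levels of 2294, 2448 and 3336 in WT, 1994, 2914 and 1213 in the SlLBD40 knockout and 2875, 2255 and 2208 in the SlWRKY37 knockout. The genotypes overlapped, and neither knockout was called against WT. The difference of the SlLBD40 knockout was -0.47 ± 0.28 (SE) on the log2(value + 1) scale (limma, adjusted p = 0.208). The next, Solyc06r031920.1, was at 838, 814 and 859 in WT, 791, 792 and 813 in the SlLBD40 knockout and 1018, 1164 and 874 in the SlWRKY37 knockout. It was not called in either knockout against WT (limma, adjusted p = 0.663 and 0.162).

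The next RNA genes by abundance are neighbouring rows on chromosome 7, and both rose in both knockouts. Solyc07r035810.1 was at 210, 261 and 315 in WT, 428, 426 and 515 in the SlLBD40 knockout and 637, 647 and 361 in the SlWRKY37 knockout. The row after it was at 176, 212 and 251 in WT, 334, 360 and 341 in the SlLBD40 knockout and 505, 549 and 298 in the SlWRKY37 knockout. In both rows every knockout library lay above every WT library, and whether they belong to 1 transcript was not tested. The first rose by 0.81 ± 0.23 and 1.03 ± 0.23 on the log2(value + 1) scale (limma, adjusted p = 0.0189 and 0.0196 in the SlLBD40 and SlWRKY37 knockouts). The second rose by 0.71 ± 0.21 and 1.04 ± 0.21 (limma, adjusted p = 0.0258 and 0.0142). Without WT replicate 1 all 4 calls were lost, with limma adjusted p = 0.0698 and 0.0779 for the first row and 0.0912 and 0.0591 for the second. The SlLBD40 call of the first row was also lost without SlLBD40 replicate 3, and its SlWRKY37 call without WT replicate 2 or SlWRKY37 replicate 1 or 2, with limma adjusted p of up to 0.0664. The SlLBD40 call of the second was lost without WT replicate 2 or any single SlLBD40 library, with limma adjusted p of up to 0.0755.

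Solyc04r018390.1, the most abundant RNA gene of chromosome 4, rose in the SlLBD40 knockout. It was at 110, 126 and 192 in WT, at 345, 348 and 342 in the SlLBD40 knockout and at 240, 150 and 132 in the SlWRKY37 knockout. The SlLBD40 libraries lay close together and above the other 6, a 2.42-fold higher mean than WT (1.31 ± 0.24 on the log2 scale, limma, adjusted p = 0.00271). The summed level of chromosome 4 given above includes this locus. Solyc06r032490.1 fell in the SlWRKY37 knockout, from 254, 239 and 225 in WT to 134, 139 and 102, while the SlLBD40 libraries were at 210, 198 and 211. The fall of -0.95 ± 0.12 was called (limma, adjusted p = 0.00173), and the direct contrast of the knockouts was called too (limma, adjusted p = 0.0033). Of the rest of the 10 most abundant, Solyc07r035870.1 was at 162 to 173 in the SlWRKY37 knockout against 124 to 137 in WT (limma, adjusted p = 0.0357). That call held without SlLBD40 replicate 3 or SlWRKY37 replicate 3 and was lost in the other 7 fits that left out a library, with limma adjusted p of up to 0.137.

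**Figure D2:**
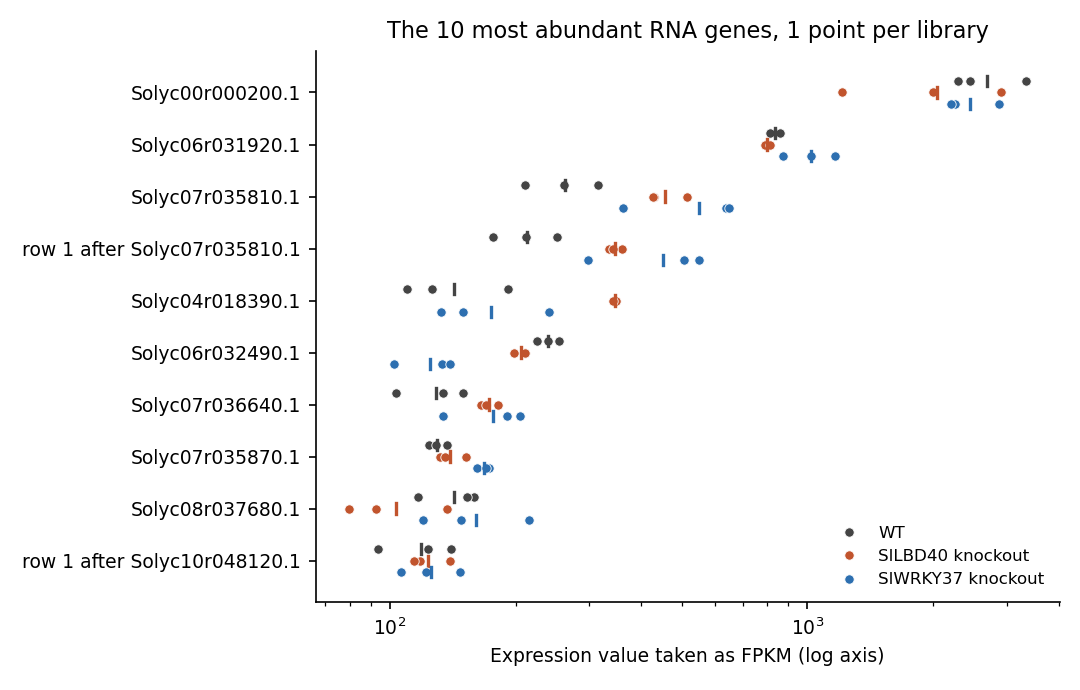
Levels taken as FPKM (log axis) of the 10 RNA genes with the highest mean, with 1 point per library and a short line at the mean of the 3 libraries of a genotype. The 3 SlLBD40 libraries of Solyc04r018390.1 sit between 342 and 348, apart from the other 6, while the genotypes overlap for Solyc00r000200.1.

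The first comparison asked how RNA genes of imbibed seed differ between the SlLBD40 knockout and WT. Of the 1033 tested RNA genes, 119 rose and 168 fell and 746 were not called (limma, Benjamini-Hochberg adjusted p below 0.05 over all 18346 tested rows). This is 27.8%, below the background of 37.2% of all tested rows and 37.8% of protein-coding rows. Over all tested rows 18% rose and 19.2% fell. The median log2 difference was -0.13 over the tested RNA genes and -0.02 over the protein-coding rows.

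The split of the calls by direction differed between low RNA genes and low protein-coding rows, a difference that was not tested. Among RNA genes with a mean of 1 to 5, 45 rose and 106 fell, whereas among protein-coding rows of the same level 752 rose and 473 fell. In the lowest band, a mean of 1 to 2, 14.6% of RNA genes were called against 20.2% of protein-coding rows. In the next, a mean of 2 to 5, it was 28.8% against 30.7%, and at a mean of 5 to 10 it was 38.8% against 37.1%. In this last band the directions were even, with 30 RNA genes higher and 32 lower and 521 protein-coding rows higher and 542 lower. Among RNA genes with a mean of 10 to 50, 37 rose and 30 fell, which is 43.8% called against 41.8% of protein-coding rows, of which 1202 rose and 1636 fell. Of the 24 RNA genes with a mean of 50 or more, 7 rose and 0 fell, which is 29.2% called against 46.1% of protein-coding rows, of which 702 rose and 711 fell. At an unadjusted p below 0.05 in the same limma fit, 9 of them were higher and 1 was lower. The spread between replicates was alike in the lowest band, with a median within-group SD of 0.32 on the log2 scale for RNA genes and 0.31 for protein-coding rows. At a mean of 50 or more it was 0.24 against 0.16. Without WT replicate 2, or without SlLBD40 replicate 1 or 2, the number of RNA genes of mean 1 to 5 that fell was 58, 57 and 58. The number that rose was 28 without SlLBD40 replicate 2 and 27 without SlLBD40 replicate 3, so more fell than rose in each of these fits.

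**Figure D3:**
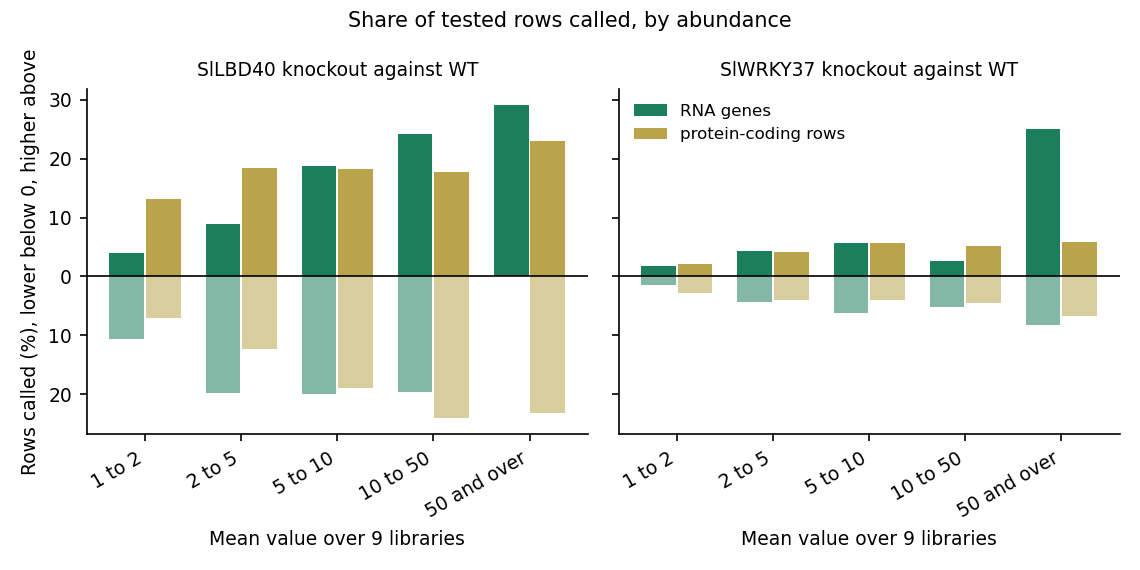
Share of tested rows called (%), with higher rows above the zero line and lower rows below it in a paler tone, for RNA genes and protein-coding rows in 5 bands of mean value, in each knockout against WT. In the SlLBD40 knockout 8.93% of RNA genes with a mean of 2 to 5 were higher and 19.9% lower, against 18.4% and 12.4% of protein-coding rows.

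Rows with the largest differences, here and below, were picked from called rows without overlap between the groups compared. Their lack of overlap between those groups is therefore no added evidence. The RNA genes with the largest rise in the SlLBD40 knockout were Solyc12r057820.1 and Solyc06r031200.1. Solyc12r057820.1 was near 0 in WT, at 0.46, 0.89 and 0.19, and at 33.7, 34.2 and 43.9 in the SlLBD40 knockout. In the SlWRKY37 knockout it was at 0.10, 5.84 and 0. The rise of 4.68 ± 0.60 on the log2(value + 1) scale was called (limma, adjusted p = 0.000638), and so was the contrast of the knockouts (4.28 ± 0.60, limma, adjusted p = 0.00146). Solyc04r023130.1 was at 9.23, 8.22 and 11.7 in WT, 40.3, 38.2 and 48.5 in the SlLBD40 knockout and 24.3, 9.16 and 11.9 in the SlWRKY37 knockout. Its SlLBD40 libraries lay above the other 6 (2.02 ± 0.29 against WT, limma, adjusted p = 0.00095). Solyc07r033610.1 was likewise 5.14-fold higher in mean than WT (limma, adjusted p = 0.000954), at 17.7 ± 5.50 against 3.45 ± 0.696 (SD, n = 3). Solyc12r058500.1, the most abundant RNA gene of chromosome 12, was 2.17-fold higher, at 70.9 ± 3.66 against 32.6 ± 7.70 (SD, n = 3; limma, adjusted p = 0.00113).

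Several RNA genes were nearly lost in the SlLBD40 knockout. Solyc12r057920.1 was even across WT at 13.8, 14.3 and 14.7, and across the SlWRKY37 knockout at 14.3, 15.4 and 12.2. It was at 0.56, 0.72 and 0.55 in the SlLBD40 knockout, a 23.4-fold lower mean than WT (-3.24 ± 0.14, limma, adjusted p = 2.8e-06). The row after Solyc05r025090.1 had the same pattern, at 4.16, 4.08 and 4.24 in WT, 4.34, 5 and 3.76 in the SlWRKY37 knockout and 0.09, 0.17 and 0.05 in the SlLBD40 knockout (-2.23 ± 0.18 against WT, limma, adjusted p = 8.81e-05). The fifth row after Solyc08r038960.1 was at 5.97 ± 1.01 in WT, 4.31 ± 0.265 in the SlWRKY37 knockout and 0.31 ± 0.0529 in the SlLBD40 knockout (SD, n = 3; limma, adjusted p = 5.34e-05 against WT). In these 3 rows the SlLBD40 libraries lay below the other 6, and the SlWRKY37 knockout was not called against WT (limma, adjusted p = 0.912, 0.898 and 0.212).

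Other loci were lower in both knockouts. The second row after Solyc05r026920.1 was at 6.12, 8.19 and 5.05 in WT, 2.44, 3.10 and 1.87 in the SlWRKY37 knockout and 0.04, 0.13 and 0 in the SlLBD40 knockout. The groups did not overlap, and the knockouts differed from each other by -1.70 ± 0.22 (limma, adjusted p = 0.00105). The fall in the SlWRKY37 knockout (-1.10 ± 0.22, limma, adjusted p = 0.0143) was not called without WT replicate 1 or 2, with adjusted p = 0.0539 and 0.0556. Solyc07r033090.1 was the more abundant case, at 99.4, 61.5 and 67.3 in WT, 8.39, 7.46 and 8.24 in the SlLBD40 knockout and 7.33, 21.1 and 31.7 in the SlWRKY37 knockout. Both knockouts lay below WT (-3.06 ± 0.40 and -2.05 ± 0.40, limma, adjusted p = 0.000705 and 0.0123), and the SlWRKY37 call was lost without WT replicate 1 (limma, adjusted p = 0.0535). The knockouts overlapped, and their difference of -1.01 ± 0.40 was not called (limma, adjusted p = 0.0882).

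The second row after Solyc01r004070.1 moved in opposite directions. It was at 2.91, 5.60 and 5.52 in WT, 0.06, 0.27 and 0.06 in the SlLBD40 knockout and 10.6, 11.2 and 8.89 in the SlWRKY37 knockout. The 3 genotypes did not overlap, and the fall in the SlLBD40 knockout was called (-2.29 ± 0.23, limma, adjusted p = 0.000219). The rise in the SlWRKY37 knockout (1.02 ± 0.23, limma, adjusted p = 0.0223) was lost without WT replicate 1 and without SlWRKY37 replicate 1 or 2, with adjusted p = 0.0703, 0.07 and 0.0658. The contrast between the knockouts was -3.31 ± 0.23 (limma, adjusted p = 4.46e-05).

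Some rows were at 1 or more in all 3 libraries of a genotype and listed at 0 in all 3 of another. Such rows were sought among all 6154 RNA genes and all 34075 protein-coding rows, whatever their mean. For WT against the SlLBD40 knockout, at 0 in the latter, there were 2 RNA genes, the fifth row after Solyc03r014750.1 and Solyc09r044920.1, and 17 protein-coding rows. The first was at 24.5, 2.90 and 4.02 in WT, so WT replicate 1 was far above the other WT libraries, and it was listed at 0 in 5 knockout libraries and at 0.19 in SlWRKY37 replicate 1. It was called lower in both knockouts (limma, adjusted p = 0.00356 and 0.0122). Between the knockouts there were 4 RNA genes and 16 protein-coding rows at 0 in the SlLBD40 knockout, and 2 and 11 at 0 in the SlWRKY37 knockout. Between WT and the SlWRKY37 knockout there were 0 RNA genes in either direction, against 10 protein-coding rows at 0 in the knockout and 8 at 0 in WT. At 0 in WT and at 1 or more in the SlLBD40 knockout there were 0 RNA genes and 7 protein-coding rows. These rows were singled out after their values were seen.

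The second comparison asked how RNA genes differ between the SlWRKY37 knockout and WT. Of the 1033 tested, 40 rose, 40 fell and 953 were not called (limma, adjusted p below 0.05). This is 7.74%, below the background of 9.38% of all tested rows (4.82% higher and 4.56% lower) and 9.48% of protein-coding rows. Without WT replicate 1 the number called was 41. The median log2 difference was -0.03 over the tested RNA genes and 0.03 over protein-coding rows. Of the 24 RNA genes with a mean of 50 or more, 6 rose and 2 fell, which is 33.3% called. Of the 3062 protein-coding rows at this level 179 rose and 208 fell, which is 12.6%. The called RNA genes include Solyc07r035810.1 and the row after it, which were not tested for belonging to 1 transcript. Also among them, Solyc01r006450.1 rose and Solyc09r045870.1 fell (limma, adjusted p = 0.0423 and 0.0286). Their calls were lost in 6 and 4 of the fits that left out a library. A fit of only the WT and SlWRKY37 libraries called neither (limma, adjusted p = 0.0882 and 0.0691).

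The largest rise was in Solyc06r031200.1, which rose in both knockouts. It was at 3.49, 2.22 and 3.83 in WT, 27.1, 37.0 and 62.2 in the SlLBD40 knockout and 278, 45.5 and 92.0 in the SlWRKY37 knockout. Every knockout library lay above every WT library, as the choice of this row required, though the SlWRKY37 libraries ranged widely. The differences were 4.69 ± 0.54 in the SlWRKY37 knockout and 3.30 ± 0.54 in the SlLBD40 knockout (limma, adjusted p = 0.00107 and 0.00177).

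A further set was high in the SlWRKY37 knockout and near 0 in the other genotypes. The row after Solyc12r055910.1 was at 7.38, 26.3 and 14.3 in the SlWRKY37 knockout, at 0, 0 and 0.42 in WT and listed at 0 in the SlLBD40 knockout (3.75 ± 0.37 against WT, limma, adjusted p = 0.000596). The row after Solyc11r052890.1 was at 26.4, 13.5 and 27.2 in the SlWRKY37 knockout, 0.21, 1.01 and 1.29 in WT and 0, 0.46 and 0 in the SlLBD40 knockout (3.66 ± 0.33 against WT, limma, adjusted p = 0.000502). The fourth row after Solyc09r042960.1 was at 8.29, 14.3 and 11.4 in the SlWRKY37 knockout against 0.97, 1.07 and 1.63 in WT and 0.62, 0 and 0.94 in the SlLBD40 knockout (2.45 ± 0.29 against WT, limma, adjusted p = 0.00111). In all 3 the SlWRKY37 libraries lay above the other 6, and the SlLBD40 knockout was not called against WT (limma, adjusted p = 0.745, 0.147 and 0.128). Solyc08r040800.1 fell in the SlWRKY37 knockout, from 22.5, 18.3 and 13.1 in WT to 2.22, 3.89 and 3.64, a 5.52-fold lower mean (-2.15 ± 0.26, limma, adjusted p = 0.00124). Its SlLBD40 libraries were at 16.2, 9.65 and 9.89 (limma, adjusted p = 0.112). Besides Solyc01r006450.1 and Solyc09r045870.1, a fit of only the WT and SlWRKY37 libraries did not call 6 other loci described so far as changed in this knockout. These were Solyc07r035810.1 and the row after it, Solyc07r035870.1, Solyc07r033090.1, the second row after Solyc01r004070.1 and the fifth row after Solyc03r014750.1 (limma, adjusted p of 0.0568 to 0.072).

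**Figure D4:**
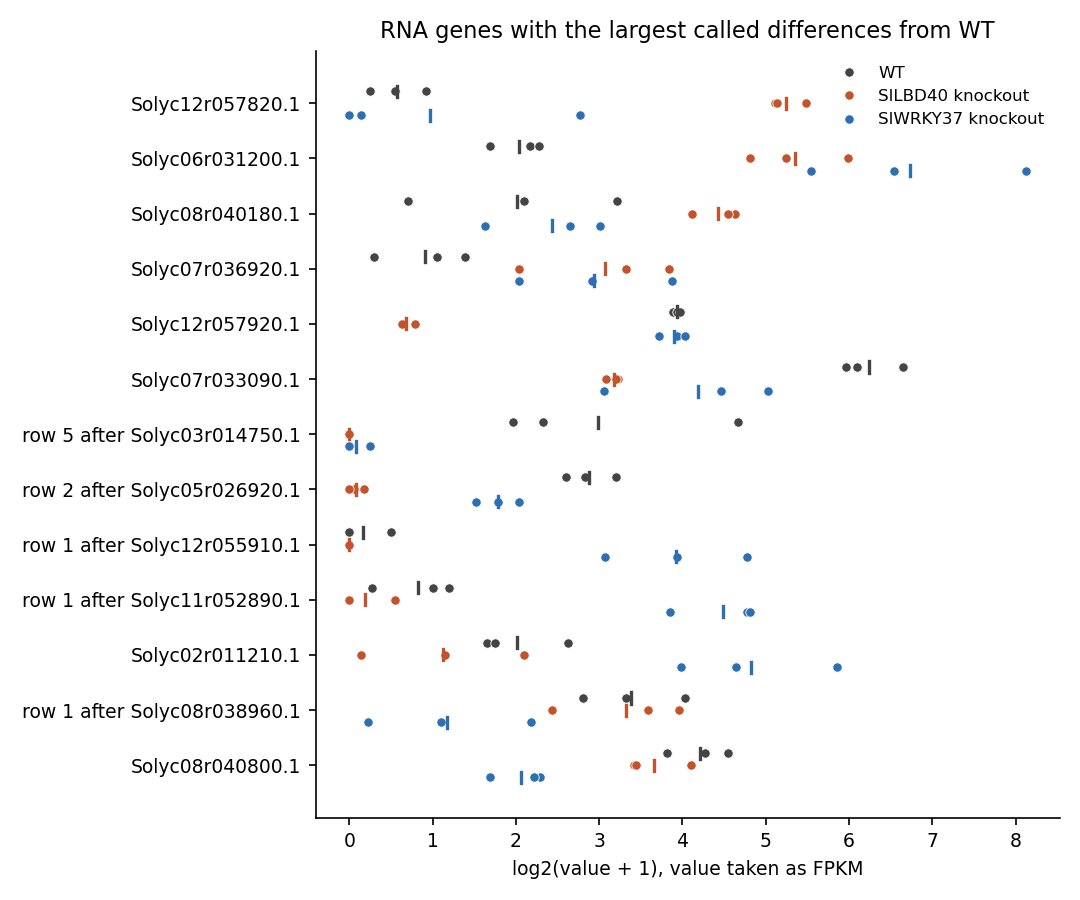
Levels on the log2(value + 1) scale of the 4 RNA genes with the largest called rise and the 4 with the largest called fall in each knockout against WT, with 1 point per library and a short line at the mean of each genotype; rows shared by both sets are drawn once. Solyc12r057920.1 is low in the SlLBD40 knockout and alike in WT and the SlWRKY37 knockout, while Solyc06r031200.1 is above WT in both knockouts.

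Both comparisons use the same 3 WT libraries, so a row with unusual WT values moves in both, and the values are given side by side. The second row after Solyc05r027380.1 was at 12.8, 18.3 and 11.2 in WT, 4.61, 4.90 and 5.22 in the SlLBD40 knockout and 4.64, 4.36 and 5.08 in the SlWRKY37 knockout. Both knockouts lay below WT and overlapped each other (-1.32 ± 0.18 and -1.38 ± 0.18, limma, adjusted p = 0.000785 and 0.0017). Solyc09r046150.1 fell from 33.4 ± 11.1 to 9.75 ± 1.06 and 9.35 ± 2.50 in the SlLBD40 and SlWRKY37 knockouts (SD, n = 3; limma, adjusted p = 0.00104 and 0.00247). Solyc03r015900.1, the most abundant RNA gene of chromosome 3, fell from 77.4 ± 10.03 to 31.7 ± 6.32 and 37.6 ± 3.57 (SD, n = 3; limma, adjusted p = 0.000528 and 0.00379). On the higher side, Solyc03r016160.1 was at 1.25, 2.44 and 1.68 in WT, 9.62, 9.59 and 12.1 in the SlLBD40 knockout and 19.6, 8.44 and 8.66 in the SlWRKY37 knockout (limma, adjusted p = 0.000959 and 0.00211). Solyc03r016520.1, on the same chromosome, rose from 5.20 ± 0.706 to 14.9 ± 1.11 and 18.6 ± 7.80 (SD, n = 3; limma, adjusted p = 0.00215 and 0.00306).

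The third comparison set the knockouts against each other. Of the 1033 tested RNA genes, 93 were higher and 103 lower in the SlLBD40 than in the SlWRKY37 knockout (limma, adjusted p below 0.05). This is 19.0%, below the background of 27% of all tested rows (12.9% higher and 14.1% lower) and 27.5% of protein-coding rows. Without SlLBD40 replicate 1 or 2 the number called was 115 and 114. Solyc12r056400.1 was higher than WT in one knockout and lower in the other, at 17.0, 18.3 and 15.9 in the SlLBD40 knockout and 0.58, 0.99 and 0.61 in the SlWRKY37 knockout, with WT between them at 4.96, 4.39 and 1.61. The 3 genotypes did not overlap (3.39 ± 0.28 between the knockouts, limma, adjusted p = 9.81e-05). Its fall in the SlWRKY37 knockout (-1.35 ± 0.28, limma, adjusted p = 0.0164) was lost without WT replicate 1 or 2 or SlWRKY37 replicate 1 (limma, adjusted p = 0.0661, 0.0554 and 0.0508) and in a fit of only these groups (limma, adjusted p = 0.0711). Solyc12r056450.1, near it by ID number, had the same order of means, at 9.69 ± 2.10 in the SlLBD40 knockout, 2.30 ± 2.17 in WT and 0.27 ± 0.468 in the SlWRKY37 knockout (SD, n = 3). It differed between the knockouts by 3.11 ± 0.47 (limma, adjusted p = 0.0021). Its SlWRKY37 libraries overlapped WT, and that difference was not called (limma, adjusted p = 0.15). Its rise over WT in the SlLBD40 knockout (limma, adjusted p = 0.0114) was lost with a pseudocount of 0.1 (limma, adjusted p = 0.0641). Solyc09r045870.1, the most abundant RNA gene of chromosome 9, was at 158, 118 and 112 in the SlLBD40 knockout and 51.4, 43.3 and 46.8 in the SlWRKY37 knockout (1.42 ± 0.20, limma, adjusted p = 0.00147), with WT at 85.5, 63.4 and 113.

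The direction of rows that follow each other was described and not tested. Pairs were formed among RNA genes alone, so protein-coding genes may lie between them. Among 236 pairs of tested RNA genes that follow each other in the table, both were called in the SlLBD40 knockout in 27 pairs, and 19 of the 27 moved in the same direction. Among protein-coding pairs, 972 of 1616 did. In the SlWRKY37 knockout 3 pairs were called, all 3 in the same direction, against 92 of 130 protein-coding pairs. The share of tested RNA genes called in the SlLBD40 knockout ran, on the numbered chromosomes, from 20% on chromosome 1 to 36.8% on chromosome 2 and 36.5% on chromosome 12. Of protein-coding rows, 34.1 to 40.6% were called on these chromosomes. On chromosome 0, 0 of 4 tested RNA genes were called. In the SlWRKY37 knockout 4 of the 140 tested RNA genes of chromosome 1 were called, which is 2.86% against 9.82% of its protein-coding rows. Other chromosomes went the other way in this knockout, such as chromosome 11, at 13.8% against 7.31%, and chromosome 7, at 14.5% against 11.4%. Of 74 tested RNA genes on chromosome 10, 13 rose and 9 fell in the SlLBD40 knockout, which is 29.7% against 34.1% of protein-coding rows. Of 65 on chromosome 11, 3 rose and 12 fell, which is 23.1% against 35.5%. Such counts per chromosome are small and were not tested against each other.

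Proteins that make, process and degrade RNA were described from a list of protein-coding rows found by their description. The list takes in every row described as a DNA-directed RNA polymerase, so it is not specific to non-coding RNA. Of 116 tested rows, 4 rose and 42 fell in the SlLBD40 knockout. This is 39.7% called, near the 37.2% of all tested rows, of which 18% rose and 19.2% fell. The median log2 difference was -0.33 against -0.02 over all tested rows. In the SlWRKY37 knockout 2 rose and 3 fell, which is 4.31% called against 9.38% of all tested rows, with a median of -0.0048. Of 50 RNA polymerase subunit rows, 1 rose and 15 fell in the SlLBD40 knockout, which is 32% called. Of 13 rows for RNA decay and the exosome, which degrades RNA from its 3′ end, 7 fell and 0 rose (53.8% called), and at an unadjusted p below 0.05 in limma it was also 7 and 0. Of 23 nucleolar and RNA-modifying rows, 10 fell and 0 rose (43.5% called), and 12 and 0 at an unadjusted p below 0.05 in limma. The number that fell was 27 without WT replicate 2, 25 without WT replicate 3, 21 without SlLBD40 replicate 1 and 26 without SlLBD40 replicate 2. It was 5 when a log2 difference of at least 1 was also required.

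Of the 30 tested small RNA pathway rows, 3 rose and 10 fell in the SlLBD40 knockout, which is 43.3% called against 37.2% of all tested rows. Argonaute4b, of the Argonaute group that carries small RNAs guiding DNA methylation, was at 36.3 ± 1.19 in the SlLBD40 knockout against 75.9 ± 7.37 in WT (SD, n = 3; limma, adjusted p = 0.00143). Dicer-like 2a fell from 3.90 ± 0.584 to 1.40 ± 0.138 (SD, n = 3; limma, adjusted p = 0.00258). The double-stranded RNA-binding protein 2 of chromosome 5 fell from 52.9 ± 0.889 to 31.7 ± 1.34, and Serrate, a partner of Dicer-like 1 in microRNA processing, from 93.1 ± 3.18 to 60.7 ± 4.31 (SD, n = 3; limma, adjusted p = 0.00357 and 0.00634). Argonaute 1, the main carrier of plant microRNAs, was at 125 ± 8.25 in WT and 82.6 ± 9.74 in the SlLBD40 knockout (SD, n = 3; limma, adjusted p = 0.0149). That call was lost without WT replicate 3 or SlLBD40 replicate 1 (limma, adjusted p = 0.0502 and 0.0612).

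The rows that rose were Dicer-like 2b, the Dicer-like 3 of chromosome 7 and a CLASSY 4-like row of chromosome 1. Dicer-like 2b rose in both knockouts, from 7.28 ± 1.71 in WT to 18.5 ± 3.46 in the SlLBD40 knockout and 31.9 ± 11.96 in the SlWRKY37 knockout (SD, n = 3; limma, adjusted p = 0.00516 and 0.00182). CLASSY proteins recruit RNA polymerase IV, which makes the precursors of small interfering RNAs, in Arabidopsis. The CLASSY 4-like row was at 0.203 ± 0.136 in WT, 22.9 ± 3.90 in the SlLBD40 knockout and 0.0567 ± 0.0737 in the SlWRKY37 knockout (SD, n = 3), a difference of 4.31 from WT on the log2(value + 1) scale (limma, adjusted p = 3.51e-06). The Dicer-like 3 of chromosome 7 was at 2.96 ± 0.418 in WT and 6.49 ± 2.22 in the SlLBD40 knockout (SD, n = 3; limma, adjusted p = 0.0151), a call lost without WT replicate 3 or SlLBD40 replicate 2 or 3 (limma, adjusted p = 0.0503, 0.0598 and 0.0533). A row of chromosome 8 described as Dicer-like 3 fell instead, from 9.21 ± 0.572 to 5.19 ± 0.779 (SD, n = 3; limma, adjusted p = 0.0204). That call was lost in 4 of the fits that left out a library (limma, adjusted p of up to 0.0749). The Dicer-like 3 of chromosome 5 and another chromosome 8 row, described as Dicer-like protein 3, were not called (limma, adjusted p = 0.445 and 0.641). Except for the row that fell, the descriptions of these Dicer-like 3 rows rest on a match to a listed protein. Whether they are full Dicer-like 3 genes was not tested. In the SlWRKY37 knockout 2 of the 30 rows rose, Dicer-like 2b and Argonaute10b, and 0 fell, which is 6.67% called against 9.38% of all tested rows, with 3 and 1 at an unadjusted p below 0.05 in limma. Argonaute10b was at 7.6 ± 1.86 in WT and 16.9 ± 6.01 in the SlWRKY37 knockout (SD, n = 3; limma, adjusted p = 0.0318), a call lost without WT replicate 1 or 3, SlLBD40 replicate 2 or SlWRKY37 replicate 2 (limma, adjusted p = 0.116, 0.0702, 0.0516 and 0.0768).

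**Figure D5:**
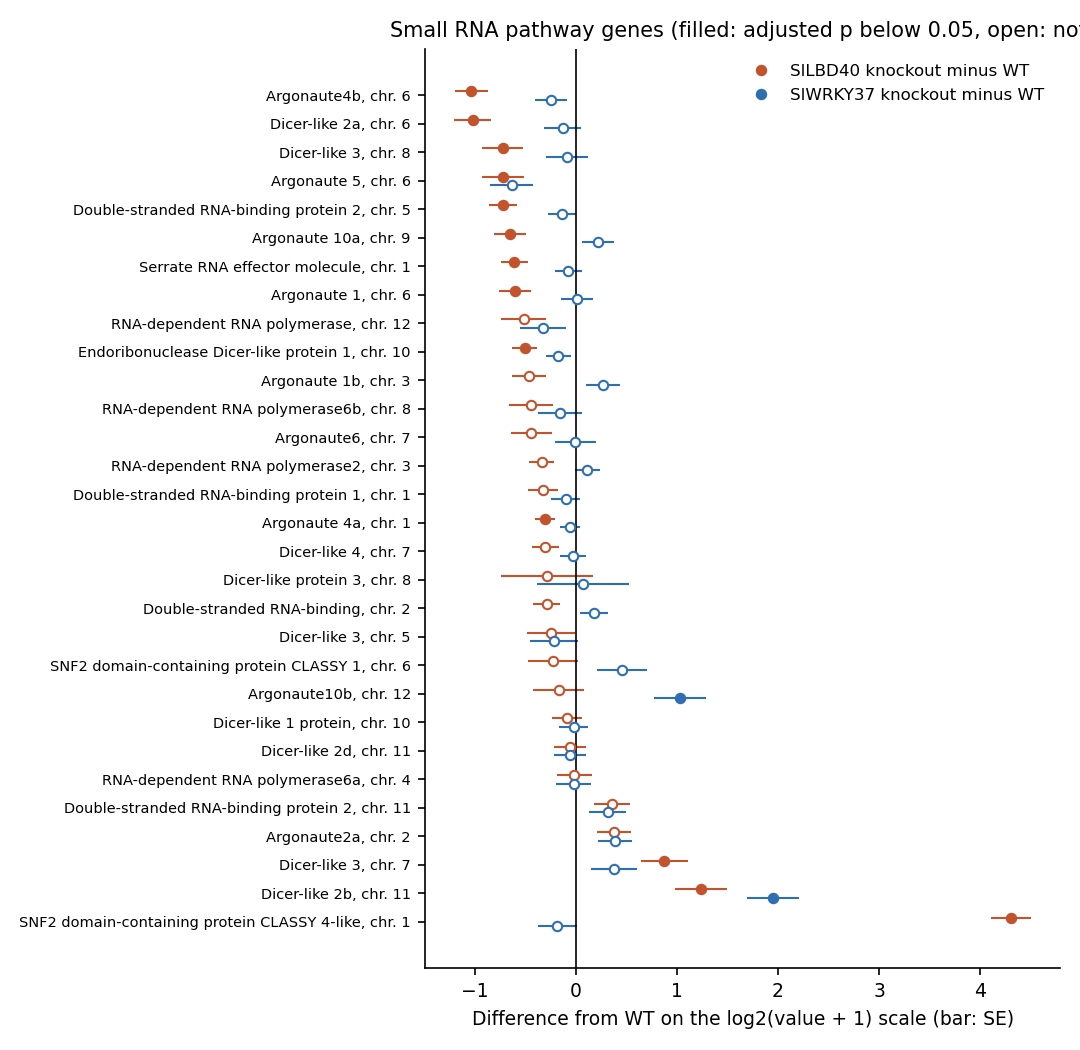
Difference of each knockout from WT on the log2(value + 1) scale, with its SE, for the 30 tested small RNA pathway rows named by their description and chromosome; filled points have an adjusted p below 0.05. Most SlLBD40 points lie left of 0, with Argonaute4b lowest, and the CLASSY 4-like row stands far to the right at 4.31.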

How the data were processed

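Per the labels' protocols, total RNA of the seeds was extracted with an RNeasy mini plus kit and 1.3 ug of it went into SMARTER mRNA-Seq libraries. The submitters' processing notes name TopHat2, HISAT2, StringTie and Cufflinks without version or role, and neither they nor the labels give the genome build or the annotation. The authors' deposited table holds 1 value per gene and library, taken here as FPKM from its decimals, its totals and these tools. TPM over a larger gene set would look alike. The deposited column of WT replicate 1 touches the gene names, so its unit is recorded as other, and it was read by character position. IDs are cut to 8 characters except where a full ID stands in the name column.

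Rows with a mean of 1 or more in the 9 libraries (18346, of which 1033 were RNA genes) were fitted as log2(value + 1) with limma 3.58.1 (limma-trend) in R 4.3.3, all 3 genotypes in 1 fit. Benjamini-Hochberg adjustment covered every tested row, and adjusted p below 0.05 was called. The pseudocount makes fold changes of low rows smaller than the ratio of their means. The fit was tested on simulated log2 values with normal noise and few changed rows. That does not show how it behaves on rows near 0 or when many rows change. Descriptions and plots used Python 3.11.15 with pandas 2.3.3, numpy 2.4.6 and matplotlib 3.10.9.

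Named RNA genes were drawn from those with the 10 highest means, the highest mean of each chromosome, the 8 largest called differences per direction against WT without overlap and with a mean of 2 or more in the higher group, and the 5 per direction called in both knockouts or between them. The RNA processing list and the tissue markers were found by words in the descriptions. The members and lists were chosen with earlier results of these data known. A reference gene table of another annotation matched 0 of the RNA gene IDs. Identical values in all libraries were shared by 372 RNA genes above 0, of which 354 were above 0 in 1 library only and 2 were tested. Alternatives were another pseudocount, filter, scaling or set of samples, a replicate block, a minimum difference and leaving out each library.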

Additional observations from a re-analysis of the deposited data

How the results depend on the processing

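The number of RNA genes called (287 in the SlLBD40 knockout, 80 in the SlWRKY37 knockout and 196 between the knockouts) became 138, 43 and 104 with a minimum mean of 5, which tests fewer genes. With a minimum log2 difference of 1 it was 138, 54 and 96. A fit of only the groups compared gave 46 in the SlWRKY37 knockout, and its cause was not tested. Leaving out each library in turn gave 192 to 314, 41 to 112 and 114 to 199. With the replicate number as a block it was 259, 64 and 177, within 1.5 times. The correlation of deviations of same-numbered libraries exceeded 0.1 in 0 of 9 pairs (-0.1045 to 0.0633), so the numbers were not read as pairs. Quantile normalization moved the lower share of calls in the SlLBD40 knockout from 58.5 to 65.9%.

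In the SlLBD40 knockout, RNA genes of mean 1 to 5 numbered 26 higher and 44 lower with a log2 difference of at least 1, and 27 to 53 and 57 to 115 with each library left out. For protein-coding rows it was 388 and 189, and 423 to 900 and 269 to 521. The fallen RNA processing rows numbered 5 and 21 to 55, and 36 with the replicate block. These 3 results were added after the data were seen, and a minimum mean of 5 leaves no row of mean 1 to 5.

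The share of RNA genes in WT, the SlLBD40 and the SlWRKY37 knockout was 1.8141, 1.7805 and 1.904% of a total without the 100 most abundant protein-coding rows, and 0.8347, 0.856 and 0.8623% without the 10 most abundant RNA genes. RNA genes at 0.1 or more averaged 2222, 2114.67 and 2121.67 per library, and at 1 or more 1050.33, 946.333 and 1016. Of 90 calls of single RNA genes, 65 held under all 17 refits, 25 were lost in at least 1 and 0 reversed. Of 27 calls of small RNA pathway rows, 14 held and 0 reversed. Read depth is unknown, so it cannot be said which low values rest on few fragments.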
